A study of Homo sapiens with 12 samples.

Results

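The 10 genes described here encode proteins of lipoprotein assembly and transport made by hepatocytes, namely the apolipoproteins APOA1, APOA2, APOB, APOC1, APOC3, APOE, APOH and APOM, the assembly factor MTTP and the plasma enzyme LCAT. They were taken by symbol from the 16705 genes of the expression table, and all 10 were present and passed the filter on low values. Human liver spheroids, grown as a co-culture of 2 cell lines, gave 12 RNA libraries, 3 in each of 4 groups. These were untreated spheroids at 24 h, spheroids exposed to 1% total parenteral nutrition (TPN) for 24 h, untreated spheroids at 144 h and spheroids exposed to 1% TPN for 144 h. Times count from the start of exposure, which by the paper was on day 3 after seeding. TPN is a feeding solution given into the blood, and the mixture used held amino acids, electrolytes, glucose, a lipid emulsion, trace elements and vitamins. All groups, controls included, held the same 2 lines in medium with fetal bovine serum. Hepatocytes were represented by HepG2/C3A cells, which were cloned from a hepatoma line. Activated hepatic stellate cells were represented by the immortalized LX-2 line. Each library came from pooled spheroids, and each cell type was represented by 1 line. Expression is given as FPKM, fragment numbers divided by the length of the transcript and by the mapped total of the library, so that levels of different genes can be set side by side.

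Hepatocytes package triglyceride and cholesterol ester into very low density lipoprotein (VLDL) around a single APOB molecule, which is lipidated in the endoplasmic reticulum by the microsomal triglyceride transfer protein, of which MTTP is the large subunit. APOC1, APOC3 and APOE are small exchangeable apolipoproteins that govern how fast triglyceride-rich particles are lipolysed and taken up. APOA1 and APOA2 are the main proteins of high density lipoprotein (HDL), APOM carries sphingosine-1-phosphate on HDL, and LCAT esterifies cholesterol on the particle with APOA1 as its cofactor. APOH, or beta-2-glycoprotein I, binds anionic phospholipids and circulates partly with lipoproteins.

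In the genome build of the table, GRCh38.p13, APOC3 (chr11:116829907-116833072) and APOA1 (chr11:116835751-116840036) were neighbours on chromosome 11, and APOE (chr19:44905796-44910640) and APOC1 (chr19:44909375-44931193) on chromosome 19. The spans of APOE and APOC1 overlapped in the table, so fragments of one could be counted for the other, and their values are uncertain to that extent. The other spans were chr1:161222292-161223631 for APOA2, chr2:20999313-21044073 for APOB, chr4:99563825-99623997 for MTTP, chr16:67939750-67944120 for LCAT and chr17:66211572-66229415 for APOH. Bases just upstream of a start site are shown for APOH, which fell with exposure at both times, and for APOM and MTTP, whose responses to exposure differed between the times. They were read from RefSeq for GRCh38.p14, where 6 of the 10 genes had 9 such windows of 250 bases, and are written 5′ to 3′ on the strand of the gene. APOA1, APOB, APOC3 and LCAT had no window, so the counts of letters below do not cover them. Capitals mark matches to the letters GTTAAT, or to their reverse complement, which are the repeated part of the site bound by HNF1 factors of the hepatocyte.
APOH, chr17:66229416-66229665, minus strand: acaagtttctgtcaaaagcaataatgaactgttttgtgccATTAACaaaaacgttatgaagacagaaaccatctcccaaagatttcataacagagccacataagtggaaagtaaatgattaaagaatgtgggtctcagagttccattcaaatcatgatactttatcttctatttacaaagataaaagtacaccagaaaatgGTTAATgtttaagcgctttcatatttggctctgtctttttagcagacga
APOM, chr6:31655644-31655893, plus strand: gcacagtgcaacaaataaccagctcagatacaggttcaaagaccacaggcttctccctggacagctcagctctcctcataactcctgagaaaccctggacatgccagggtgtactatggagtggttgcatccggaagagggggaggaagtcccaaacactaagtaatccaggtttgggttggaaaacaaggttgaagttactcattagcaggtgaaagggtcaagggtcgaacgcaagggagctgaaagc
MTTP, second of its 2 start sites, chr4:99574574-99574823, plus strand: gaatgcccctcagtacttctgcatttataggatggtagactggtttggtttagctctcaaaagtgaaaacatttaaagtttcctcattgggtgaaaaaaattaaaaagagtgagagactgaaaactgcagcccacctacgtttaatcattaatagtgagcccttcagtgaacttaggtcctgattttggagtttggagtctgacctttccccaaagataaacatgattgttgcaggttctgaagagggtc

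GTTAAT was found on either strand in 1 of the 9 windows, that of APOH, once as printed, 49 to 44 bases before the start, and once on the opposite strand, 210 to 205 bases before it. The same letters were present in 6.23% of all 35116 windows. The full palindromic site of HNF1 was in none of the 9 windows and in 0.0057% of all windows. The HNF4 letters CAAAGTNCA were in 0 of 9 and in 0.94% of all, the related CAAAGGNCA in 0 of 9 and in 1.43%, and the core of the antioxidant response element, TGACNNNGC, in 0 of 9 and in 10.9%. The inverted repeat bound by the bile acid receptor FXR was in 0 of the 35116 windows. Only exact letters were counted, with no mismatch allowed, so these absences do not show that a promoter lacks a site. GTTAAT is part of the full HNF1 site, and GTTAAT and CAAAGGNCA were added after the other letters had been found in none of the 9 windows.

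The 10 genes covered a wide range of abundance. APOA2 had the second highest mean FPKM of the 16705 genes, APOA1 ranked 31, APOH 56, APOE 112, APOB 146, APOC3 148, APOC1 199, APOM 261, MTTP 1460 and LCAT 2690. Together they held between 2.11% and 2.44% of the FPKM sum of a library, and APOA2 alone held 46.3% ± 2.36 (SD, n = 3) of the members' FPKM in untreated spheroids at 24 h. In that group the levels ran in the order APOA2, APOA1, APOH, APOE, APOB, APOC3, APOC1, APOM, MTTP, LCAT, and among neighbours in the order only the ranges of APOE and APOB overlapped. The members were steady within groups, with a median coefficient of variation of 4.04% and a highest value of 16.8%, for APOB in untreated spheroids at 144 h. Between the highest and the lowest of the 4 group means APOE spanned 1.08-fold, APOA2 1.10-fold, APOA1 1.12-fold, APOC1 1.17-fold, MTTP 1.23-fold, APOC3 1.32-fold, APOH 1.49-fold, LCAT 1.69-fold, APOM 1.71-fold and APOB 1.91-fold.

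**Figure D1:**
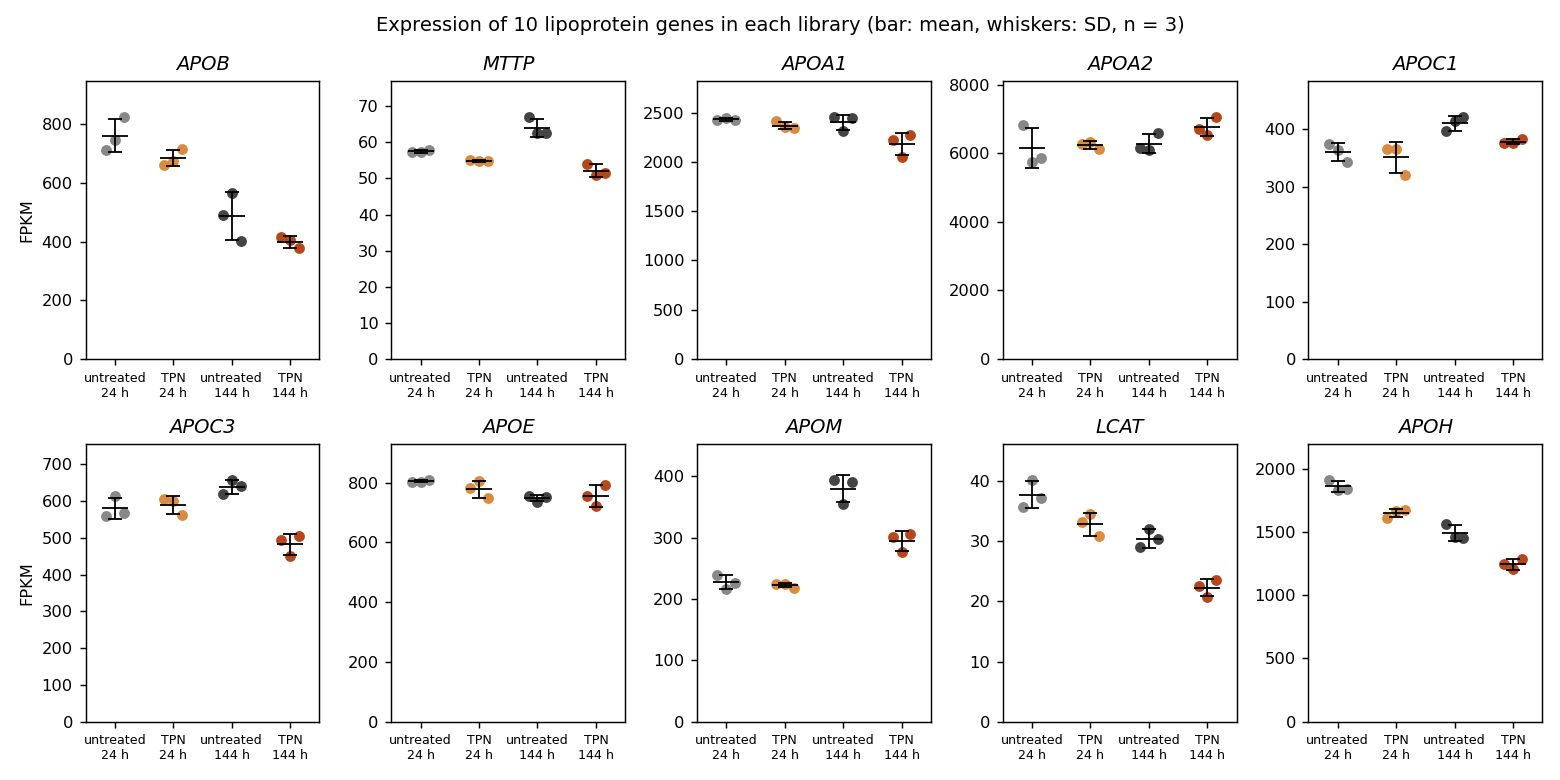
Expression of each of the 10 genes in FPKM (vertical axis, linear, starting at 0) in the 4 groups, with a point for each of the 3 libraries, a bar for their mean and whiskers for the SD. LCAT, APOC3, APOM, MTTP and APOH lie lower in every TPN library at 144 h than in every untreated library at 144 h, while APOA2 and APOE overlap.

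The FPKM sums of the libraries lay between 561657 and 583722, and 10936 to 11074 genes reached 1 FPKM. ALB, the gene of albumin and a defining product of hepatocytes, was at 3674 to 6391 FPKM. Of the stellate cell markers COL1A1 (0.62 to 16.3 FPKM), PDGFRB (2.15 to 3.14 FPKM) and ACTA2 (43.6 to 58.4 FPKM) were detected in every library, whereas DES was at or near 0 (0.00 to 0.09 FPKM), and LUM, DCN and PDGFRA were under the filter. The summed level of the 13 stellate markers was, at 24 h, 138 to 146 FPKM without and 123 to 126 FPKM with TPN, and at 144 h 75.8 to 80.7 and 70.5 to 73.1 FPKM. The sum of 12 plasma protein markers of hepatocytes was 13686 to 14258 and 12933 to 13135 FPKM at 24 h, and 18229 to 19455 and 15731 to 16900 FPKM at 144 h. A few genes carried each sum. At 144 h with TPN, ACTA2 and SPARC gave means of 45.4 and 21.7 FPKM of the stellate sum, and SPARC was at 20.8 FPKM without TPN. Without TPN, from 24 h to 144 h, ACTA2 went from a mean of 57.8 to 47.9 FPKM and SPARC from 41.8 to 20.8 FPKM. COL1A1 went from 15.1 to 1.92 FPKM and PDGFRB from 3.10 to 3.08 FPKM, so the sum does not stand for each marker. ALB went from a mean of 6044 to 3863 FPKM at 144 h, most of the fall of the hepatocyte sum, while AMBP went from 1349 to 1583 FPKM. Both sums thus moved with time and with exposure, and their part in the results on the 10 genes was not tested. In RNA from whole spheroids, fewer cells of a type and less RNA per cell cannot be told apart.

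The first comparison asked what 24 h of exposure to 1% TPN did to these genes. Of the 10 genes, 2 fell and none rose, APOH by 0.17 and LCAT by 0.20 on the log2 scale, against 5.46% of the 11713 genes tested that fell, 5.04% that rose and 10.5% that changed in either direction (limma, Benjamini-Hochberg adjusted p below 0.05). The median log2 fold change of the 10 genes was -0.04, and that of all genes tested was -0.0045. None of the 10 changed by more than 0.58 on that scale, as 0.914% of all genes tested did. In 4 of the 10 genes (APOA1, APOH, MTTP, LCAT) every exposed library lay below every untreated one, and groups did not overlap for 29.9% of all genes.

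APOH was at 1909.9, 1833 and 1837 FPKM in the untreated libraries and at 1609, 1661 and 1673 FPKM in the exposed libraries at 24 h. The exposed libraries were all lower, with a log2 fold change of -0.17 (SE 0.03, adjusted p = 0.00527). LCAT, the scarcest of the 10, was at 35.7, 40.2 and 37.2 FPKM in untreated and at 33.2, 34.55 and 30.8 FPKM in exposed libraries. Its log2 fold change was -0.20 (SE 0.06, adjusted p = 0.0480), close to the threshold. The call was lost (adjusted p from 0.0610 to 0.182) without untreated replicate 2 or 3 or exposed replicate 1 or 3 at 24 h, and without untreated replicate 3 or exposed replicate 1 at 144 h. It was also lost with a replicate block (0.0583), after median ratio scaling (0.0537), under quantile normalization (0.0720), without the filter (0.0809) and without the intensity trend (0.0920).

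The other 8 genes did not pass the test at 24 h. MTTP was narrowly but fully separated, at 57.3, 57.4 and 58.0 FPKM in untreated and 55.1, 54.8 and 54.7 FPKM in exposed libraries, and its log2 fold change was -0.07 (95% interval -0.14 to 0.0020, adjusted p = 0.222). The VLDL protein APOB stood at 713, 749 and 824 FPKM without and 663, 674 and 715 FPKM with TPN, and these ranges overlapped (log2 fold change -0.15, 95% interval -0.35 to 0.05). Over the fits that left out 1 library the APOB value ran from -0.20 to -0.095 and did not pass. For APOC3 the interval of the log2 fold change was -0.08 to 0.12, for APOM -0.13 to 0.07, for APOA2 -0.10 to 0.15, for APOC1 -0.14 to 0.06, for APOE -0.12 to 0.03 and for APOA1 -0.12 to 0.04. None of these intervals reached a change of 0.58, the fold threshold of the study for a differentially expressed gene.

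The second comparison asked the same after 144 h. Of the 10 genes, 7 fell and none rose, against 28.3% of all genes tested that fell and 52.5% that changed in either direction. From the largest change they were LCAT, APOC3, APOM, MTTP, APOB, APOH and APOA1, with log2 fold changes from -0.45 to -0.14, whereas APOC1, APOA2 and APOE did not pass. None of the 10 changed by more than 0.58, as 9.48% of all genes tested did. The median log2 fold change was -0.27 for the 10 genes and -0.02 for all genes tested. All exposed libraries lay below all untreated libraries for 7 of the 10 genes (APOC1 among them and APOB not), and groups did not overlap for 57.3% of all genes tested.

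**Figure D2:**
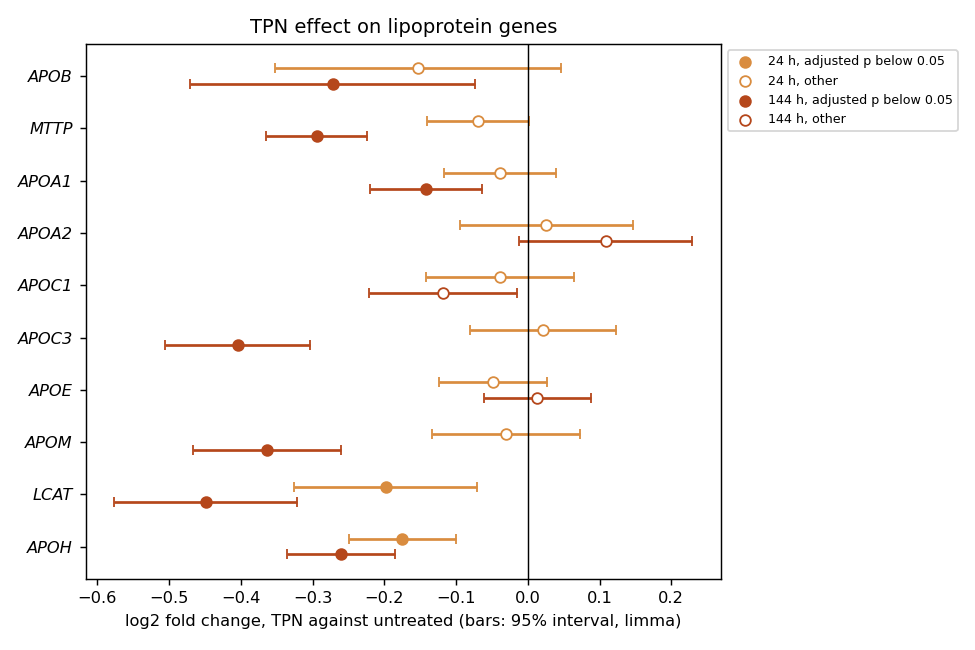
Log2 fold change of each gene, TPN-exposed against untreated (horizontal axis), at 24 h (light) and 144 h (dark), with 95% intervals from limma (3 libraries a group). Filled points have an adjusted p below 0.05, which holds for 2 genes at 24 h and 7 at 144 h, all to the left of 0.

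Both genes that start VLDL assembly fell at 144 h. MTTP was at 66.95, 62.7 and 62.5 FPKM in untreated and at 54.1, 50.8 and 51.65 FPKM in exposed spheroids. Every exposed library was lower (log2 fold change -0.29, SE 0.03, adjusted p = 5.85e-06). APOB was at 493, 565 and 402 FPKM in untreated and at 417, 404 and 377 FPKM in exposed spheroids. Here the groups overlapped, since untreated replicate 3 lay below exposed replicates 1 and 2, and the log2 fold change was -0.27 (SE 0.09, adjusted p = 0.0239). The APOB call was lost without untreated replicate 1 (adjusted p = 0.0648), without untreated replicate 2 (0.118) and without exposed replicate 3 (0.0879) at 144 h, and over all left-out libraries its log2 fold change ran from -0.40, without untreated replicate 3, to -0.16, without untreated replicate 2, and its adjusted p from 0.000354 to 0.118. Without the intensity trend the adjusted p was 0.0523. The ratio of APOB to MTTP FPKM at 144 h was 7.60 ± 1.31 (SD, n = 3) without and 7.65 ± 0.333 with TPN, and 13.2 ± 0.902 and 12.5 ± 0.535 at 24 h.

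Among the exchangeable apolipoproteins of triglyceride-rich particles the response was unequal. APOC3, an inhibitor of lipolysis and of remnant uptake, was at 618, 657 and 640.0 FPKM in untreated and at 493, 450.2 and 505 FPKM in exposed spheroids at 144 h. It fell by 0.40 on the log2 scale (SE 0.05, adjusted p = 8.27e-06), with no overlap. APOC1 was at 396, 414 and 421 FPKM in untreated and at 375, 376 and 383 FPKM in exposed spheroids. These groups did not overlap either, but the change of -0.12 (SE 0.05) just missed the threshold (adjusted p = 0.0537). APOC1 passed without untreated replicate 3 (0.0455), exposed replicate 1 (0.0496) or exposed replicate 3 (0.0113) at 24 h and without untreated replicate 1 at 144 h (0.0421), within a range of 0.0113 to 0.151 over all left-out libraries. It also passed with a filter at 5 FPKM (0.0473), with libraries scaled to the same FPKM sum (0.0198) and in a fit of only these groups (0.0103). APOE, the ligand for receptor uptake of remnants, was at 755, 736 and 754 FPKM in untreated and at 755, 720.45 and 792 FPKM in exposed spheroids. Its groups overlapped, and the 95% interval of its log2 fold change was -0.06 to 0.09.

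The HDL genes divided as well. APOA1 was at 2451, 2316 and 2440.04 FPKM in untreated and at 2217, 2051 and 2268 FPKM in exposed spheroids at 144 h. All exposed libraries were lower (log2 fold change -0.14, SE 0.04, adjusted p = 0.00474). APOA2, the second protein of HDL, was at 6142, 6088 and 6592 FPKM in untreated and at 6702, 6541 and 7046 FPKM in exposed spheroids. The groups overlapped, with a log2 fold change of 0.11 (95% interval -0.01 to 0.23, adjusted p = 0.121). That gene passed only without untreated replicate 1 at 24 h (adjusted p = 0.0284, in a range of 0.0284 to 0.322 over left-out libraries). The ratio of APOA2 to APOA1 FPKM at 144 h was 2.61 ± 0.0993 (SD, n = 3) without and 3.11 ± 0.0832 with TPN, and APOA2 took 48.5% ± 1.30 and 53.8% ± 0.454 of the summed FPKM of the 10 genes.

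APOM was at 394, 354 and 390.2 FPKM in untreated and at 301, 277 and 307 FPKM in exposed spheroids at 144 h. The groups were well apart (log2 fold change -0.36, SE 0.05, adjusted p = 2.74e-05). LCAT was at 29.0, 32.0 and 30.3 FPKM in untreated and at 22.5, 20.8 and 23.55 FPKM in exposed spheroids. It had the largest change of the 10 genes, -0.45 (SE 0.06, adjusted p = 2.60e-05), a percent change of -26.7% (95% interval -32.9% to -20.0%). APOH was at 1560.3, 1463 and 1449 FPKM in untreated and at 1243, 1203 and 1287 FPKM in exposed spheroids. Again no library overlapped (log2 fold change -0.26, SE 0.03, adjusted p = 3.00e-05).

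Whether the response differed between the times was tested as the difference of the 2 TPN effects. It passed for 4 of the 10 genes, all more negative at 144 h, against 30.4% of all genes tested, of which 16.3% were in that direction and 14.1% in the other. None of these differences was beyond 0.58, as 5.87% were among all genes tested. The difference was -0.43 (SE 0.07, adjusted p = 0.000361) for APOC3, -0.33 (SE 0.07, adjusted p = 0.00236) for APOM, -0.23 (SE 0.05, adjusted p = 0.00260) for MTTP and -0.25 (SE 0.08, adjusted p = 0.0361) for LCAT. The LCAT call was lost (adjusted p from 0.0519 to 0.0870) without untreated replicate 1 or 3 or exposed replicate 1 or 2 at 24 h, and without untreated replicate 2 or 3 or exposed replicate 1 or 2 at 144 h, and also without the filter (0.0599) and without the intensity trend (0.0654). For APOH, which had passed at both times, the difference was -0.09 (95% interval -0.19 to 0.02). For APOB the interval was wide, -0.40 to 0.16, and it was -0.21 to 0.0068 for APOA1, -0.22 to 0.07 for APOC1, -0.04 to 0.17 for APOE and -0.09 to 0.25 for APOA2. The 2 effects come from separate libraries at each time.

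The third comparison set 144 h against 24 h in untreated spheroids, which is the course of the culture itself. By the paper, spheroids grew in size between the start of exposure and the end of the longest one. Of the 10 genes, 8 passed, with 4 higher (APOM, APOC1, MTTP, APOC3) and 4 lower (APOB, APOH, LCAT, APOE) at 144 h, against 72.6% of all genes tested, of which 20.1% were higher and 52.4% lower. With the values as deposited the median of all genes tested was itself -0.18, and after median ratio scaling, which sets the middle gene of each library level, it was -0.0078 and the members divided into 6 higher and 2 lower. Under quantile normalization 4 were higher and 3 lower. The groups did not overlap for 8 of the 10 genes and for 74.9% of all genes tested. Changes above 0.58 were seen for 2 of the 10 genes, APOM and APOB, and for 19.0% of all genes tested. APOB was under that limit after median ratio scaling (-0.48) and without untreated replicate 3 at 144 h (-0.53), while APOH was past it under quantile normalization (-0.62). The genes called in 1 direction under all 4 scalings were APOB, APOC1, APOC3, APOH, APOM and MTTP.

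**Figure D3:**
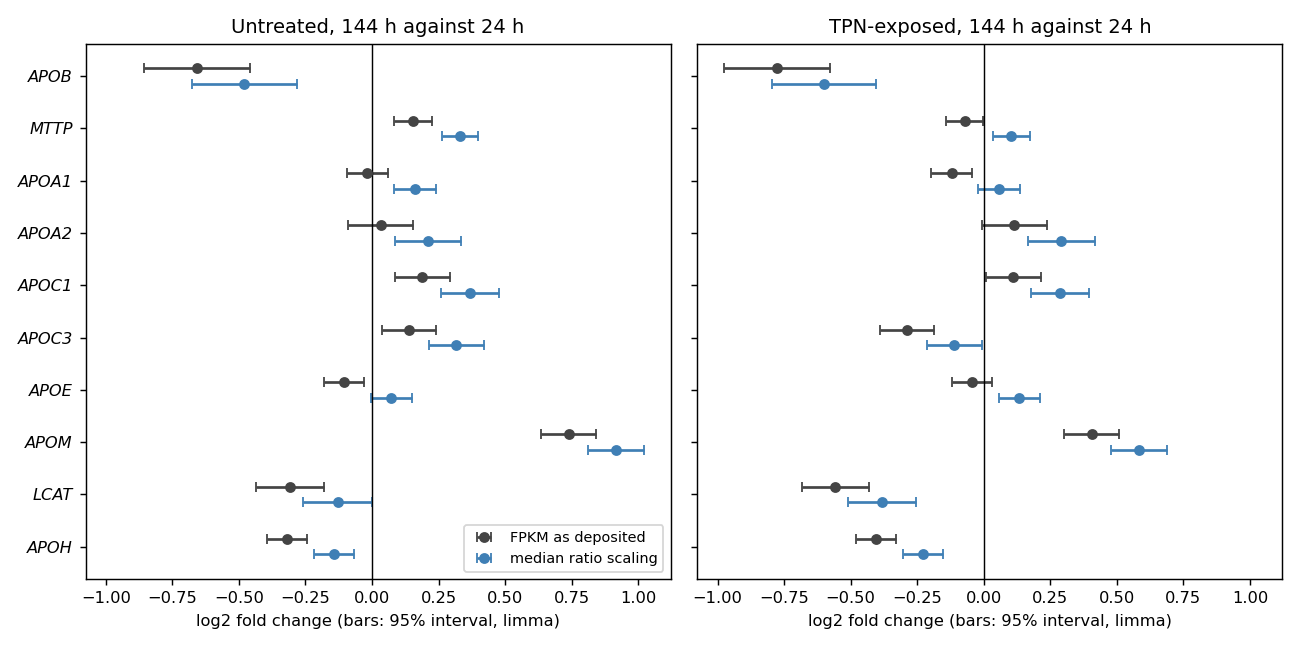
Log2 fold change of each gene at 144 h against 24 h (horizontal axis) in untreated (left) and TPN-exposed (right) spheroids, from the FPKM as deposited (dark) and after median ratio scaling (blue), with 95% intervals from limma. APOM lies highest and APOB lowest in both panels and on both scales, while APOA1 and APOE change side with the scaling, as MTTP does in exposed spheroids.

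APOM rose most, from 239, 216 and 227 FPKM at 24 h to the 354 to 394 FPKM given above (log2 fold change 0.74, SE 0.05, adjusted p = 1.12e-08). APOB fell most, from 713 to 824 FPKM down to 402 to 565 FPKM (log2 fold change -0.66, SE 0.09, adjusted p = 2.04e-05). For both, no library of one time reached the range of the other. APOB thereby moved from a place above APOC3 in the order of levels to one below it, and at 144 h its range overlapped that of APOC1. By RT-qPCR relative to a housekeeping gene, the paper reported its hepatocyte markers, APOB among them, as stable over time. It compared the start of exposure with the end of the longest exposure, so its earlier time is not the 24 h used here. The difference from the FPKM values was not tested. APOH fell by 0.32 on the log2 scale (SE 0.03), with -0.14 after median ratio scaling and -0.62 under quantile normalization. LCAT fell by 0.31 (SE 0.06), with -0.13 (adjusted p = 0.0709) and -0.14 (0.0608) under the same scalings. APOC1 rose by 0.19 (SE 0.05), from 375, 363 and 342 FPKM, and MTTP by 0.15 (SE 0.03). APOC3 rose by 0.14 (SE 0.05, adjusted p = 0.0169), from 560.15, 613 and 568 FPKM. After median ratio scaling these 3 rises were 0.37, 0.33 and 0.32.

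The APOC3 call was lost without untreated replicate 1 (adjusted p = 0.0704) or 3 (0.0573) at 24 h or untreated replicate 2 at 144 h (0.0647). APOE went from 802, 803 and 809 FPKM to 736 to 755 FPKM, a log2 fold change of -0.10 (SE 0.03, adjusted p = 0.0148) as deposited. It did not pass after median ratio scaling (0.07, adjusted p = 0.0863) or under quantile normalization (-0.012, adjusted p = 0.718). Without untreated replicate 2 at 144 h the adjusted p of APOE was 0.0517. APOA1 (2424, 2445 and 2423 FPKM at 24 h) and APOA2 (6832, 5748 and 5870.2 FPKM) overlapped between the times. Their log2 fold changes were -0.02 (SE 0.04) and 0.03 (SE 0.06) as deposited, and neither passed. Both passed as higher after median ratio scaling (0.16, adjusted p = 0.00161, and 0.21, adjusted p = 0.00588), whereas under quantile normalization APOA1 passed as lower (-0.35, adjusted p = 2.04e-05), so that no direction held for APOA1 across the scalings. APOA2 passed without untreated replicate 1 at 24 h, its highest library (log2 fold change 0.11, adjusted p = 0.0327).

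In TPN-exposed spheroids 6 of the 10 genes passed between 24 h and 144 h, against 76.2% of all genes tested. Of all genes 24.2% were higher and 52.0% lower, and 26.7% changed by more than 0.58, as 1 of the 10, APOB, did. A second gene joined it after median ratio scaling (APOM, 0.58), under quantile normalization (APOH, -0.71) and without exposed replicate 3 at 24 h or at 144 h (LCAT, -0.60 in both fits). The groups did not overlap for 9 of the 10 genes, all but APOE, and for 77.9% of all genes tested. APOM rose by 0.41 (SE 0.05), from 224, 225 and 218 FPKM. APOB fell by 0.78 (SE 0.09), LCAT by 0.56 (SE 0.06), APOH by 0.41 (SE 0.03), APOC3 by 0.29 (SE 0.05) and APOA1 by 0.12 (SE 0.04). After median ratio scaling the values were -0.23 for APOH, -0.11 for APOC3 (adjusted p = 0.0513) and 0.06 for APOA1, and under quantile normalization -0.71, -0.32 and -0.44. Without 1 library APOA1 ran from -0.15 to -0.08. As deposited, APOC3 had the opposite sign in exposed and untreated cultures, going from 605, 601 and 561 FPKM at 24 h to 450.2 to 505 FPKM at 144 h under exposure. Median ratio scaling changed the split from 1 higher and 5 lower to 5 higher and 3 lower. APOB, APOH, APOM and LCAT were called in 1 direction under all 4 scalings, while the call of MTTP turned with the scaling. MTTP was at -0.07 (adjusted p = 0.0603) as deposited, passed as lower with libraries scaled to the same FPKM sum (-0.09, adjusted p = 0.0277) and with a replicate block (0.0489), and passed as higher after median ratio scaling (0.10, adjusted p = 0.00926) and quantile normalization (0.11, adjusted p = 0.00787). APOC1 (0.11, adjusted p = 0.0506) and APOA2 (0.11, adjusted p = 0.0774) did not pass as deposited and passed as higher after median ratio scaling (0.29 each). APOC1 also passed under quantile normalization (0.19), with a pseudocount of 1 and with a filter at 5 FPKM. It passed in 4 of the fits that left out 1 library, over all of which it ran from 0.046 to 0.14. APOA2 also passed in a fit of only these groups and without untreated replicate 1 at 24 h.

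The other genes of lipoprotein metabolism were taken from lists, and their TPN effect at 144 h is given beside the 52.5% of all genes tested that changed at that time. At 24 h the share was 10.5%. Of 13 other apolipoproteins tested, 2 rose and 3 fell. APOA4, which lies in the gene cluster of APOA1 and APOC3, was at 17.5, 19.2 and 19.1 FPKM in untreated and at 46.1, 36.9 and 45.2 FPKM in exposed spheroids, and no library overlapped. Its log2 fold change was 1.19 (SE 0.07, adjusted p = 1.72e-08), a rise while APOA1, APOC3 and APOA5, an activator of lipolysis in the same cluster (log2 fold change -0.28, SE 0.05), fell. At 24 h APOA4 had already risen by 0.28 (SE 0.07, adjusted p = 0.0259), which did not pass without untreated replicate 1 (0.0787) or 3 (0.0958) or exposed replicate 2 (0.0841) or 3 (0.0702) at 24 h, without the filter (0.0517) or without the intensity trend (0.0589).

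Beside APOE and APOC1, APOC2, the cofactor of lipoprotein lipase, fell by 0.12 (SE 0.04, adjusted p = 0.0245), a call that was lost without untreated replicate 1 (0.0662) or 2 (0.0586) or exposed replicate 2 (0.115) at 144 h and without the intensity trend (0.0564). APOC4 in the same cluster was scarce, at 0.15 to 1.10 FPKM over all libraries, and its log2 fold change of 0.62 (SE 0.52) did not pass. APOL2, an intracellular apolipoprotein L, rose by 0.54 (SE 0.06), and APOF, an inhibitor of lipid transfer, fell by 0.22 (SE 0.06).

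**Figure D4:**
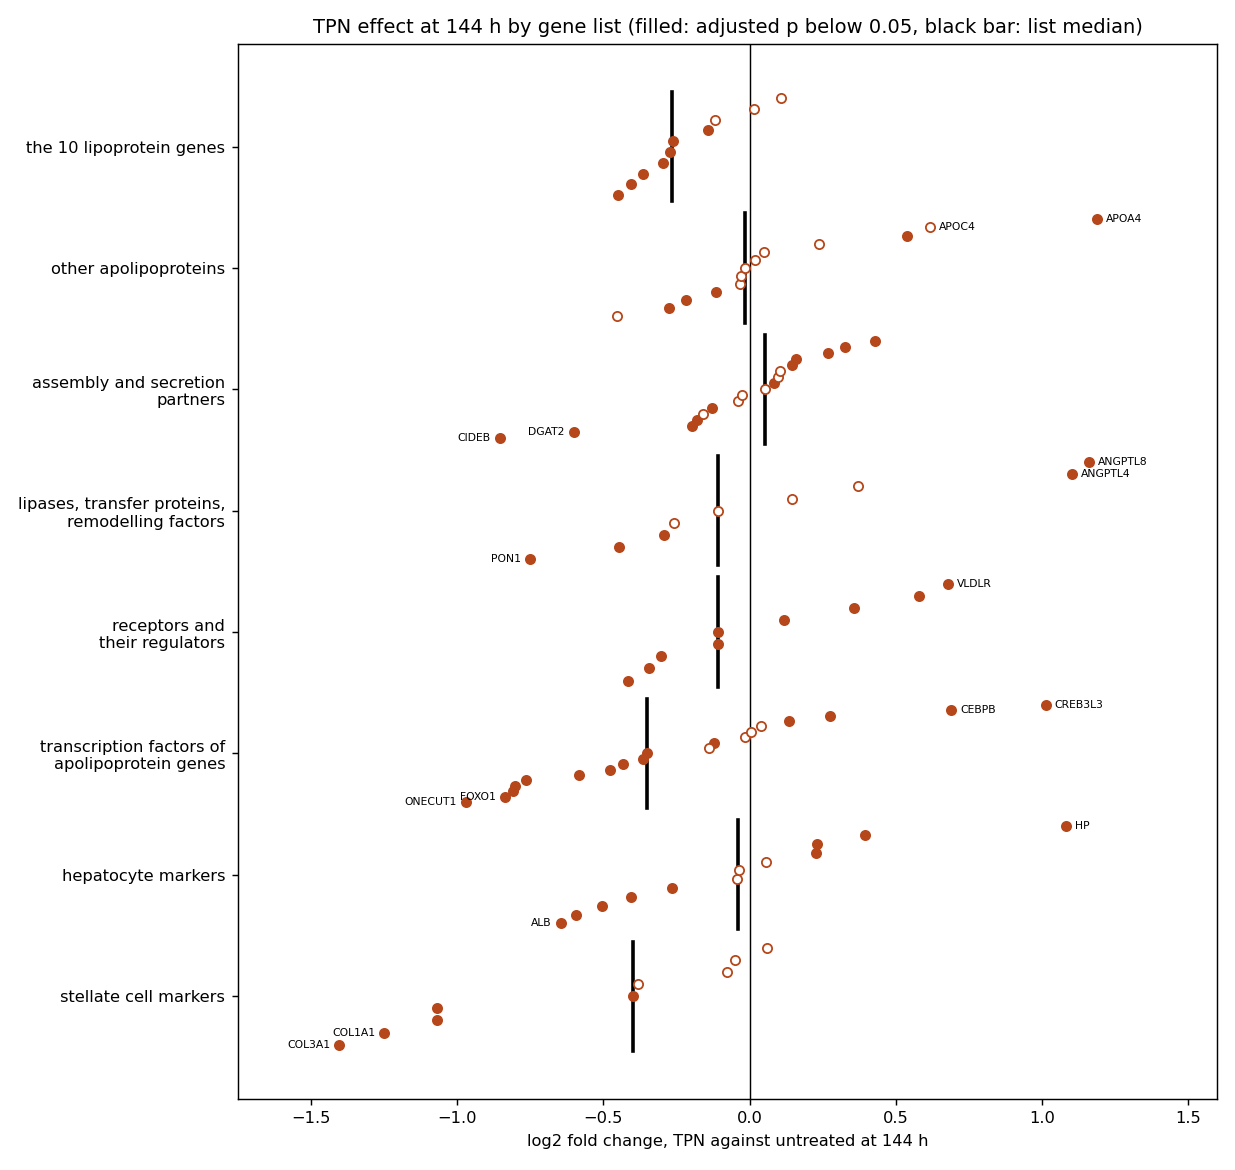
Log2 fold change at 144 h, TPN-exposed against untreated (horizontal axis), of every tested gene of the 10 lipoprotein genes and 7 gene lists (rows). Filled points have an adjusted p below 0.05 (limma), black bars are list medians, and the most extreme genes beyond 0.6 are named. The 10 genes lie between -0.45 and 0.11, inside the span of most lists.

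Of 17 partners in assembly and secretion, 6 rose and 5 fell at 144 h. CIDEB, a lipid droplet protein that promotes VLDL lipidation, was at 24.4, 22.9 and 24.1 FPKM in untreated and at 14.2, 12.97 and 12.2 FPKM in exposed spheroids. That is a log2 fold change of -0.85 (SE 0.05, adjusted p = 1.16e-08). DGAT2, which makes triglyceride, fell by 0.60 (SE 0.05), and both genes had fallen at 24 h as well, DGAT2 by 0.34 (SE 0.05) and CIDEB by 0.21 (SE 0.05). The CIDEB call at 24 h was lost without untreated replicate 1 (adjusted p = 0.0576) or 2 (0.0525) or exposed replicate 2 (0.0666) at 24 h. VMP1 and TMEM41B, membrane lipid scramblases of the endoplasmic reticulum, rose, with log2 fold changes of 0.43 (SE 0.03) and 0.33 (SE 0.08), the latter 0.21 without exposed replicate 2 at 144 h.

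Of 9 lipases, transfer proteins and other remodelling factors tested, 2 rose and 3 fell. ANGPTL8, an inhibitor of lipoprotein lipase made by the fed liver, was at 259, 256 and 275 FPKM in untreated and at 586, 574 and 607 FPKM in exposed spheroids (log2 fold change 1.16, SE 0.06, adjusted p = 6.74e-09). ANGPTL4, a second such inhibitor, was at 17.6, 17.7 and 17.2 FPKM against 37.7, 37.4 and 38.0 FPKM (log2 fold change 1.10, SE 0.13). ANGPTL8 had already risen at 24 h, with a log2 fold change of 0.71 (SE 0.06). PON1, an esterase carried on HDL, fell by 0.75 (SE 0.16; -0.50 with a pseudocount of 1), and CETP, which exchanges cholesterol ester between particles, by 0.45 (SE 0.08).

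The 9 receptors and receptor regulators reported here passed at 144 h, 4 higher and 5 lower. VLDLR, a receptor for triglyceride-rich lipoproteins that bind through APOE, was at 3.90, 4.18 and 4.35 FPKM in untreated and at 6.55, 6.90 and 6.59 FPKM in exposed spheroids (log2 fold change 0.68, SE 0.07). LRP8, a second receptor for APOE, was at 4.34, 4.44 and 4.47 FPKM against 6.75, 6.71 and 6.48 FPKM (log2 fold change 0.58, SE 0.06). The remnant receptor LRP1 was higher as well (0.36, SE 0.08), and for these 3 receptors no exposed library overlapped an untreated one. MYLIP, a ubiquitin ligase that marks VLDLR and LRP8 for degradation, was scarce and fell by 0.42 (SE 0.15, adjusted p = 0.0341; -0.23 with a pseudocount of 1), a call that was lost without the filter on low values (0.0547) and without untreated replicate 1 (0.0644) or 3 (0.120) or exposed replicate 2 (0.110) or 3 (0.0774) at 144 h. At 24 h 2 of the 9 genes passed, against 10.5% of all genes tested. They were LRP8, which was higher (0.49, SE 0.06), and SORT1, a sorting receptor that binds APOB, which was lower (-0.10, SE 0.03, adjusted p = 0.0471). The SORT1 call was lost in 10 of the 12 fits that left out 1 library (adjusted p from 0.0445 to 0.159) and with a replicate block (0.0623), with libraries scaled to the same FPKM sum (0.0503), under quantile normalization (0.0674), without the intensity trend (0.0634) and in a fit of only these groups (0.0749).

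Of 19 transcription factors known to act on apolipoprotein genes, 4 rose and 11 fell at 144 h, with a list median of -0.35. The largest changes were those of CREB3L3 (1.01, SE 0.07), ONECUT1 (-0.97, SE 0.10; -0.63 with a pseudocount of 1), FOXO1 (-0.84, SE 0.06) and NR1H4 (-0.81, SE 0.08), the last being the gene of the bile acid receptor FXR. CREB3L3, whose product is known to act on APOA4 and APOC2, was at 16.4, 16.0 and 15.2 FPKM in untreated and at 33.9, 29.4 and 33.3 FPKM in exposed spheroids. FOXO1, known to act on APOC3 and MTTP, was at 6.50, 6.96 and 6.50 FPKM against 3.79, 3.81 and 3.45 FPKM. At 24 h 9 of the 19 passed, 2 higher and 7 lower, against 5.04% and 5.46% of all genes tested, the largest being NR1H4 (-0.41, SE 0.08), FOXA1 (-0.35, SE 0.07), CEBPA (-0.32, SE 0.05) and FOXO1 (-0.32, SE 0.06).

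Among the 12 hepatocyte plasma protein markers 4 rose and 5 fell at 144 h. ALB was at 6391, 5709 and 6031 FPKM in untreated and at 3974, 3674 and 3941 FPKM in exposed spheroids (log2 fold change -0.65, SE 0.04), and the carriers TF (-0.59, SE 0.03) and TTR (-0.51, SE 0.04) were lower too. HP, the haemoglobin-binding protein haptoglobin, was higher (1.08, SE 0.07). Of the 9 stellate markers tested 5 fell and none rose, with COL3A1 (-1.40, SE 0.18), COL1A1 (-1.25, SE 0.14), COL1A2 (-1.07, SE 0.28) and VIM (-1.07, SE 0.16) changing most. COL1A2 (0.00 to 0.33 FPKM) and COL3A1 (0.08 to 0.60 FPKM) were near 0 at 144 h, and with a pseudocount of 1 or 0.01 their log2 fold changes were -0.23 or -2.23 and -0.41 or -1.92. COL1A1 was at -0.73 and VIM at -0.70 with a pseudocount of 1, and COL1A2 at -0.66 without exposed replicate 3 at 144 h. PDGFRB fell by 0.40 (SE 0.07), and for ACTA2 the log2 fold change was -0.08 (SE 0.04, adjusted p = 0.130). At 24 h 9 of the 12 hepatocyte markers fell and none rose, and of the stellate markers 1 of 9 fell, ACTA2, with a log2 fold change of -0.29 (SE 0.04). Of all genes tested 5.46% fell at 24 h.

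The patterns of the 10 genes over the 12 libraries were also compared with those of the 8327 genes with a mean of at least 5 FPKM, as the root mean square difference of log2(FPKM + 0.1) after centring each gene. The smallest difference was that of MTTP to the sorting receptor SORT1, at 0.0261. The measure is not scaled to how much a gene varies, so it does not rank the 10 genes by likeness. SORT1 was at a mean of 33.8 FPKM in untreated and 31.6 FPKM in exposed spheroids at 24 h, and 37.1 and 30.0 FPKM at 144 h. The nearest gene to APOA1 was RAB4A (0.0321), to APOE ATP5PO (0.0340), to APOH COG2 (0.0403), to APOC1 FBLN1 (0.0456), to APOC3 TBL2 (0.0530), to LCAT DCXR (0.0556), to APOA2 EPB41L4B (0.0578), to APOM PPFIBP2 (0.0669) and to APOB PRKDC (0.0783). A second gene lay almost as near to APOA1 (AGT, 0.0326), to APOE (CBWD2, 0.03399) and to APOC1 (ATP5MC2, 0.0461), so the nearest gene is not a distinct match there. Genes in the same libraries share their depth and scaling, and none of the 10 genes was nearest to another of them by construction, since members were not candidates.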

How the data were processed

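RNA of pooled spheroids was made into strand-specific mRNA libraries and sequenced on DNA nanoballs. In the study FPKM came from RSEM, after Bowtie2 2.2.5 had placed reads on reference transcripts. The genome, GRCh38.p13, was searched with HISAT2 2.0.4. The deposited FPKM values, rounded to 2 decimals, were used as deposited, with groups taken from the sample labels. A further 20 lines of the table held spilled annotation text and no gene and were left out. No read counts were used, so the count-based test of the study was replaced by limma 3.58.1 in R 4.3.3 on log2(FPKM + 0.1), and fold changes are on that scale, which understates those of low genes. The 11713 genes with a mean of at least 0.5 FPKM over the 12 libraries entered 1 fit of the 4 groups, with eBayes and an intensity trend, and p-values were adjusted over all of them by the Benjamini-Hochberg method. A gene that rose, fell or passed had an adjusted p below 0.05, and its groups had 3 libraries each. The labels give replicate numbers only, and by the paper the sequencing data came from 3 independent experiments. The p-values measure the spread between these libraries. The procedure was tested on simulated data with known changes, and no outcome of that test is reported here.

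Depth is not given in the sources used here. Steps in the low values of 25 genes gave a rough estimate of 1.19e+07 fragments per library (quartiles over genes 8.82e+06 and 1.3e+07), of which LCAT would have about 371 in its lowest library. The 10 genes and the gene lists were chosen with earlier results of these data known, and some genes of the receptor list are not reported here. From each list the text names up to 4 genes with the largest absolute change among those that passed, the markers ALB, COL1A1, PDGFRB, ACTA2 and DES, the neighbours of member genes in the APOA1 and APOE clusters, and for each member the gene of most similar pattern. SPARC, AMBP, LUM, DCN and PDGFRA are outside that rule and were named after their values were seen, to describe the marker sums. The log2 fold changes of the genes named and the counts of member and list genes that passed in a comparison were recomputed with a pseudocount of 1 or 0.01, without the filter or with one at 5 FPKM, after scaling to equal FPKM sums, by median ratios or by quantiles, without the trend, in a fit of only the groups compared (not for the difference of the TPN effects, which needs all 4), with a block for the replicate number, and with each of the 12 libraries removed. The strand column of the table was not used, and the table's span of APOM, on an alternate contig, is not given. Tables and figures were made in Python 3.11.15 (pandas 2.3.3, matplotlib 3.10.9).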

Additional observations from a re-analysis of the deposited data

Results flagged for a closer look

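By the test of the difference itself in limma (adjusted p below 0.05), the TPN effect at 144 h differed from that at 24 h for 4 of the 10 genes. It also differed for 29 of the 40 list genes that were named for a TPN effect, as markers or as cluster neighbours. Of all genes tested 30.4% differed. Differences are log2 fold changes at 144 h minus those at 24 h. Among the 10 genes they were APOC3 (-0.43), APOM (-0.33), MTTP (-0.23) and LCAT (-0.25). The LCAT value lost its call in 8 of the 12 fits that left out 1 library and without the filter (0.0599) or the intensity trend (0.0654).

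Among other apolipoproteins the effect was higher at 144 h for APOA4 (0.91), APOL1 (0.24) and APOL2 (0.67) and lower for APOA5 (-0.30). Among assembly partners it was lower for CIDEB (-0.64) and DGAT2 (-0.26) and higher for VMP1 (0.37). Among remodelling factors and receptors it was higher for ANGPTL8 (0.45), ANGPTL4 (0.81), VLDLR (0.51) and LRP1 (0.42) and lower for CETP (-0.40) and SORT1 (-0.21). Of the transcription factors, CREB3L3 (0.73) had a higher effect and NR1H4 (-0.40), FOXA1 (-0.45), CEBPA (-0.44), FOXO1 (-0.51) and ONECUT1 (-0.80) a lower one. Of the hepatocyte markers, FGB (0.63), FGA (0.61) and HP (1.43) had a higher effect at 144 h than at 24 h, and ALB (-0.45) and TF (-0.40) a lower one. Of the stellate markers, ACTA2 (0.21) had a higher effect, its fall at 24 h being larger than its change at 144 h, and COL1A1 (-1.25), COL3A1 (-1.22), VIM (-0.83) and PDGFRB (-0.36) a lower one. Over whole lists the difference passed for 4 of 13 other apolipoproteins tested (3 higher, 1 lower), 5 of 17 assembly partners (3 and 2), 3 of 9 remodelling factors (2 and 1), 4 of the 9 receptors and regulators reported (2 and 2), 11 of 19 transcription factors (3 and 8), 8 of 12 hepatocyte markers (5 and 3) and 5 of 9 stellate markers tested (1 and 4). Among these, FGG (0.72), the third fibrinogen chain, NR2F1 (0.48), SAR1B (0.25) and LSR (-0.30) were not named for a TPN effect at a single time. The list genes given before these counts were named for changes in 1 of the same comparisons, as markers or as cluster neighbours, so the share that differs is not an unselected one. With a pseudocount of 1 the difference was -0.27 (adjusted p = 0.0952) for COL3A1, -0.48 (0.0514) for VIM, -0.73 for COL1A1 and -0.52 for ONECUT1. The call was lost without untreated replicate 3 at 144 h for CETP (adjusted p = 0.0526), and for PDGFRB without exposed replicate 2 (0.0503) or 3 (0.0519) at 24 h or exposed replicate 2 at 144 h (0.0507).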

How the results depend on the processing

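At 24 h the count of genes that passed was 2 of 10 and became 1 without a filter, under median ratio scaling, under quantile normalization, with eBayes without a trend and with a replicate block, and 1 to 2 when single libraries were left out. LCAT was the gene lost in each case. At 144 h the count of 7 ran from 6 to 8 over all alternatives. Deviations of same-numbered libraries correlated only weakly (from -0.083 to 0.151), and those of differently numbered ones from -0.241 to 0.114. For replicate 3 all same-numbered correlations were above 0 (0.0354 to 0.151), so a partial pairing may be present that the main fit leaves out. With a block for the replicate number, the TPN effect at 24 h, at 144 h and their difference had 1, 7 and 4 calls (2, 7 and 4 without it). The time course had 8 calls in untreated and 7 in exposed spheroids (8 and 6 without it). Of 490 other alternative values of the 10 genes 455 kept direction and call, 12 lost and 13 gained a call and 10 changed sign, and of 600 values with 1 library left out 557, 21, 13 and 9.

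Sign changes were as follows. For APOE the TPN effect was 0.0074 at 24 h under quantile normalization and -0.00093 at 144 h with libraries scaled to the same FPKM sum. In untreated spheroids over time, median ratio scaling gave 0.16 for APOA1, 0.073 for APOE, 0.17 for PDGFRB, 0.14 for APOA4 and 0.048 for APOA5, and quantile normalization gave -0.048 for APOA2, 0.067 for PDGFRB, 0.11 for APOA4 and 0.043 for APOA5. In exposed spheroids over time, median ratio scaling gave 0.056 for APOA1, 0.13 for APOE and 0.10 for MTTP, and quantile normalization gave -0.048 for APOA2 and 0.11 for MTTP. The cause was not tested. Over time in exposed spheroids the median of all genes was -0.18 as deposited, -0.0112 after median ratio scaling and -0.0621 under quantile normalization, and in untreated spheroids it was -0.0494 under quantile normalization. With single libraries left out, the TPN effect at 24 h ran from -0.021 to 0.10 for APOA2, -0.075 to 0.025 for APOC1, -0.0041 to 0.061 for APOC3, -0.065 to 0.0060 for APOM, -0.053 to 0.051 for COL1A1, -0.073 to 0.017 for PDGFRB, -0.024 to 0.049 for APOA5 and -0.77 to 0.19 for APOC4, and that at 144 h from -0.021 to 0.047 for APOE. In untreated spheroids over time it ran from -0.032 to 0.0088 for APOA1, -0.014 to 0.11 for APOA2, -0.023 to 0.0038 for PDGFRB, -0.070 to 0.0052 for APOA4 and -0.81 to 0.13 for APOC4. With the deposited values and all libraries none of these effects had passed, apart from APOE over time in untreated spheroids, APOA5 over time in untreated spheroids and APOA1 over time in exposed spheroids.

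Quantile normalization set APOA2 to the same value in groups where it held the same rank, so its TPN effect there is 0 by construction. With 3 libraries a group and no read counts, changes within intervals that include 0 could not be told from none.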

Other observations

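The lists also moved with the age of the culture. In untreated spheroids at 144 h against 24 h, 8 of the 9 stellate markers tested fell and none rose, led by COL1A1 (log2 fold change -2.93, SE 0.14), VIM (-2.67, SE 0.16), THY1 (-2.66, SE 0.19) and COL3A1 (-2.59, SE 0.18), while the PDGF receptor gene PDGFRB was at -0.0075 (SE 0.07). Of the 12 hepatocyte markers 7 rose and 3 fell, with AHSG (0.99, SE 0.03), TF (0.62, SE 0.03) and VTN (0.55, SE 0.04) higher and HP (-0.82, SE 0.07) lower.

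Among assembly partners 6 rose and 8 fell of 17, and both enzymes of the last step of triglyceride synthesis were lower, DGAT1 from a mean of 48.0 to 20.6 FPKM (log2 fold change -1.22, SE 0.07) and DGAT2 from 32.7 to 17.1 FPKM (-0.93, SE 0.05). SMLR1 was lower (-0.56, SE 0.07) and TMEM41B higher (0.54, SE 0.08). Of 9 remodelling factors 3 rose and 3 fell, and ANGPTL4 had the largest change of the lists, from 1.72, 1.77 and 1.18 FPKM to 17.6, 17.7 and 17.2 FPKM (3.43, SE 0.13). CETP (1.86, SE 0.08) and ANGPTL8 (1.06, SE 0.06) were higher too and PON3 was lower (-0.60, SE 0.11). Of the 9 receptors and regulators reported 3 rose and 4 fell, with VLDLR (1.01, SE 0.07) and LSR (0.46, SE 0.04) higher and SDC1 (-0.70, SE 0.03) and LRP8 (-0.51, SE 0.06) lower. Of 13 other apolipoproteins 3 rose and 4 fell, with APOF (0.34, SE 0.06) and CLU (0.30, SE 0.04) higher and APOL3 (-0.85, SE 0.21) and APOO (-0.41, SE 0.09) lower. Of 19 transcription factors 6 rose and 8 fell, with CEBPB (0.93, SE 0.04), PPARGC1A (0.89, SE 0.07) and FOXA2 (0.61, SE 0.04) higher and CEBPA (-0.59, SE 0.05) lower. These values are from FPKM as deposited, on which 72.6% of all genes tested changed with a median of -0.18. After median ratio scaling the change was -0.23 for APOO, -0.34 for LRP8, 0.52 for APOF and 0.48 for CLU, under quantile normalization it was 0.65 for AHSG, and with a pseudocount of 1 it was -0.44 for APOL3, -0.92 for THY1 and -1.58 for COL3A1.

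After 24 h of exposure 3 of 9 remodelling factors passed, against 10.5% of all genes tested, among them LIPC, hepatic lipase (-0.26, SE 0.05), and PLTP, the phospholipid transfer protein (0.24, SE 0.07, adjusted p = 0.0354). The PLTP call was lost without untreated replicate 1 (adjusted p = 0.0876) or 2 (0.143) or exposed replicate 1 (0.118) or 2 (0.130) at 24 h, without the filter (0.0620), without the intensity trend (0.0642) and in a fit of only these groups (0.0563), and without exposed replicate 2 at 144 h 5 of the 9 factors passed. APOL1 (-0.25, SE 0.03) and APOC2 (-0.17, SE 0.04) were lower at that time, the latter not without untreated replicate 1 (adjusted p = 0.0615) or exposed replicate 3 (0.0671) at 24 h. The hepatocyte markers that fell most at 24 h were the fibrinogen chains FGB (-0.58, SE 0.04) and FGA (-0.38, SE 0.04), with TTR (-0.35, SE 0.04) and HP (-0.34, SE 0.07) next.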
